A study of Mus musculus with 6 samples.

Results

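Proteasome subunit genes were followed in lung RNA of wild type mice through the probe sets of an Affymetrix mouse array. The members are all probe sets that the platform annotation assigns to 1 gene symbol formed of Psma, Psmb, Psmc, Psmd or Psme and a number. There were 88 such probe sets for 42 genes, of 45037 probe sets without Affymetrix controls and 18193 singly named genes in all. Lungs came from 3 mice on a high fat diet and 3 mice on a control diet, with 1 array per sample number, each taken here as 1 mouse. All 6 mice were wild type, and the labels used here give no strain, age, sex or time on the diet. The probe set of Psme2 also names Psme2b and was left out by this rule.

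The proteasome is the large protease that degrades proteins tagged with ubiquitin. Its 20S core is a barrel of outer alpha rings, which gate the entrance, and inner beta rings, which hold the catalytic threonines of Psmb5, Psmb6 and Psmb7. In leukocytes and in cells exposed to interferon gamma, Psmb8, Psmb9 and Psmb10 take the places of these catalytic subunits and form the immunoproteasome, which supplies peptides for MHC class I. The 19S regulator binds ubiquitin chains, removes them and unfolds the protein with its ATPases (Psmc genes), while the 11S (Psme1 to Psme3) and PA200 (Psme4) activators open the core without ubiquitin recognition.

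Signals are MAS5 intensities that the authors scaled to the same trimmed mean on every array, so each is relative to its array. Even so, the median over all probe sets was 121.2, 113.4 and 128.7 on high fat arrays, against 145.1, 150.3 and 143.3 on control arrays. The 3′ over 5′ signal ratio of the Gapdh control probe sets, a measure of RNA quality, averaged 0.915 in high fat and 0.768 in control mice. It did not overlap between groups (two-sided exact permutation p = 0.1, which is the lowest value possible with 3 mice per group). Lung epithelial markers such as Sftpc were present throughout, with sums over 7 tested markers of 228706 to 254154 in high fat and 166799 to 275405 in control mice. Sums over 8 cardiac muscle markers were 147789, 42080 and 62384 in high fat mice, against 31645, 19430 and 45031 in control mice. The skeletal muscle sum of control replicate 1 was 59826 and that of high fat replicate 1 was 18758, against 584 to 3298 in the other mice. Sums over 5 tested adipocyte markers were 22173 to 31324 in high fat and 2408 to 5617 in control mice. In whole tissue, fewer cells of a type and less RNA per cell cannot be told apart.

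Few lung proteasome probe sets were called different between the diets. Of the 88 probe sets, 71 from 40 genes were bright enough to be tested, and 1 of these rose, 2 fell and 68 were not called in high fat mice. A call is a limma adjusted p under 0.05, taken over all 27022 tested probe sets. Over all of them 4.63 percent were called higher and 8.27 percent lower, 12.9 percent in all, while 4.23 percent of the proteasome probe sets were called. An unadjusted p under 0.05 was reached by 16 of the 71, or 22.5 percent, beside 31.1 percent of all tested probe sets. Groups did not overlap for 7 members that were higher and 19 that were lower in high fat mice, 9.86 and 26.8 percent, against 14.6 and 21.7 percent of all tested probe sets. The called member that rose was a bright Psmb3 probe set, and those that fell were dim probe sets of Psma6 and Psmc2. Psma8 and Psmb11, the alpha subunit of testis and the beta subunit of the thymic cortex, were below the brightness filter. Psma8 had signals of 44, 43.3 and 58.6 in high fat and 42.1, 40.1 and 29.9 in control mice, and Psmb11 8.16, 4.14 and 2.36 in high fat and 23.1, 16.7 and 7.62 in control mice.

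The median log2 difference (high fat minus control) of the 71 members was -0.095, beside -0.058 over all tested probe sets. Centring each array on its median moves all differences up, and the medians were then 0.18 for the members and 0.22 for all. The members' median minus that of all probe sets was -0.037 with the deposited scaling and with median centring, and -0.17 with quantile normalization. A small negative difference can therefore be positive on that scale. For 1 probe set per gene, the brightest, the median difference was -0.086 in the 40 members and 0.056 over all 12689 genes. Groups did not overlap for 11 of the 40 that were lower and 5 that were higher in high fat mice. Over all genes, 12.1 percent were lower without overlap. The share that was higher without overlap was counted over all tested probe sets only, and was 14.6 percent. The 95% intervals of the 40 had a median half-width of 0.28 on the log2 scale. Of 40 such intervals 28 lay within ± 0.5 and 39 within ± 1, and the exception was Psmb3. Adjusted over 12689 genes, Psmb3 was again the 1 called gene of 40 (limma adjusted p = 0.0279), where 4.56 percent of genes were called higher and 2.2 percent lower.

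**Figure D1:**
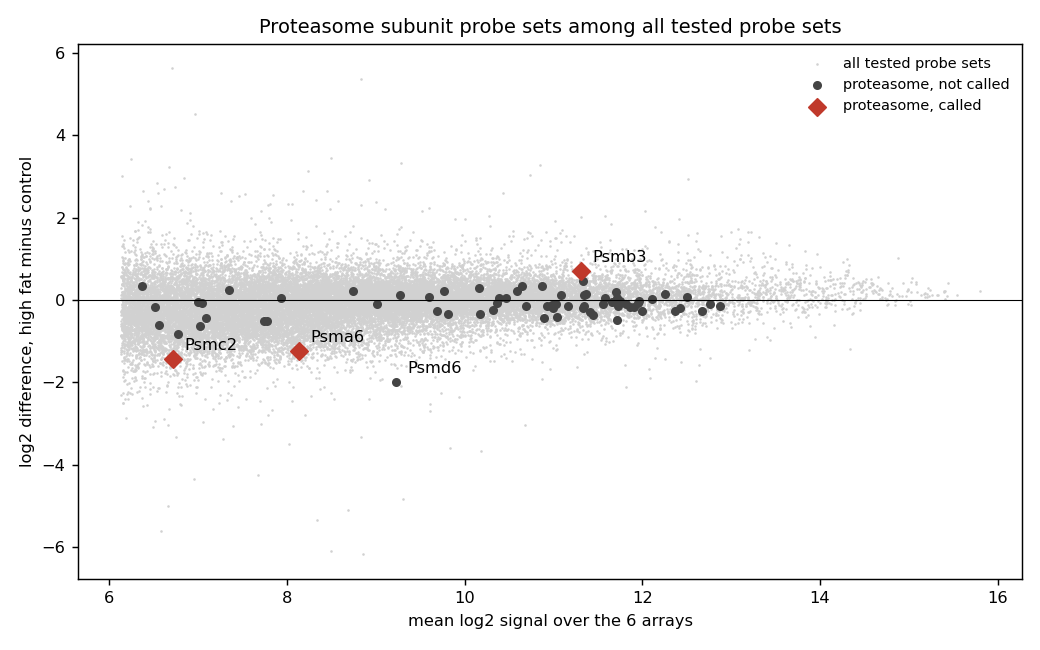
Log2 difference, high fat minus control, against mean log2 signal over 6 arrays for all 27022 tested probe sets (grey) and the 71 proteasome probe sets (dark points, with the 3 called ones as red diamonds). Most proteasome points lie near 0; Psmb3 lies above, and the called probe sets of Psmc2 and Psma6 and an uncalled one of Psmd6 lie below.

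**Figure D2:**
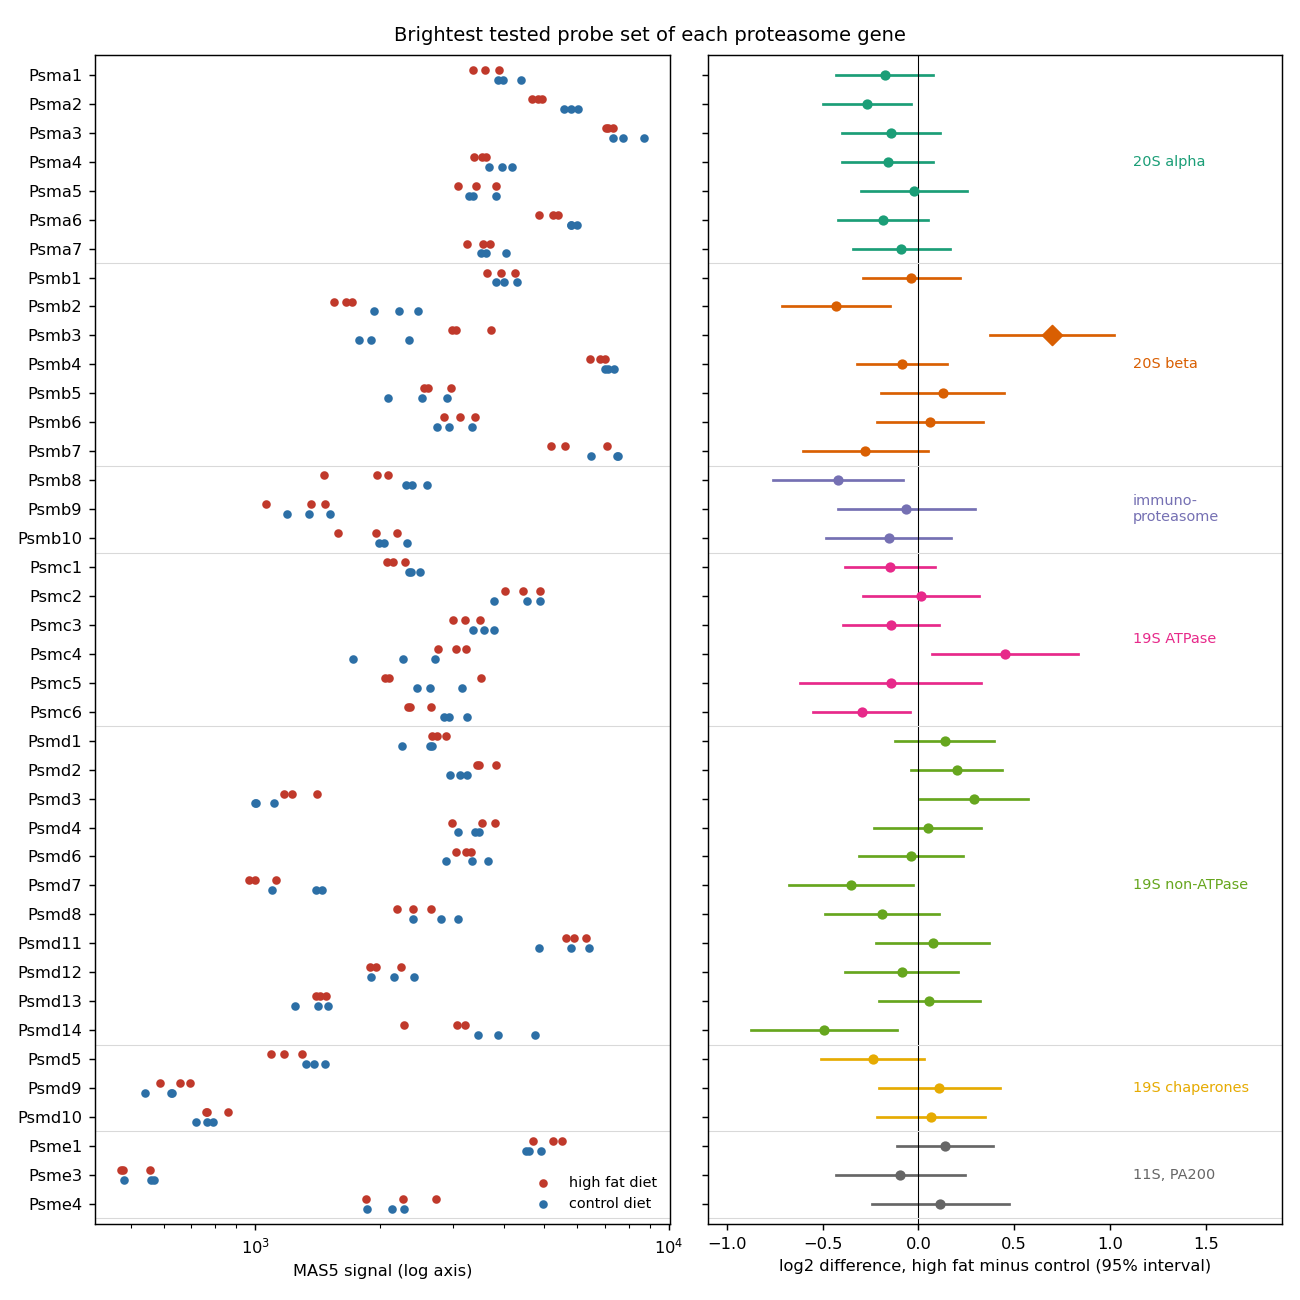
Left, the MAS5 signal on a log axis of the brightest tested probe set of each of 40 proteasome genes on each high fat (red, upper) and control (blue, lower) array; signals compare diets within a row, not genes. Right, the log2 difference with its 95% interval, with a diamond for the 1 called gene, Psmb3 (0.70), and the other 39 differences between -0.49 and 0.45.

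Among the 7 genes of the alpha ring measured by a tested probe set, none was called by its brightest probe set, beside 6.75 percent of all genes. The 7 differences ran from -0.27 to -0.021, all negative with the deposited scaling and with quantile normalization (-0.36 to -0.089) and all positive with median centring (0.005 to 0.25). The median of the ring's 13 tested probe sets minus that of all probe sets was -0.12, -0.26 and -0.12 under these scalings. Psma2, the lowest of them, had signals of 4928, 4834 and 4681 in high fat mice, against 5789.8, 5582 and 6046 in control mice. The groups did not overlap, and the difference of -0.27 (95% interval -0.50 to -0.039) was not called (limma adjusted p = 0.112). At the other end, Psma5 had 3815, 3098 and 3411 in high fat mice, against 3287, 3817 and 3358 in control mice, which overlapped (log2 difference -0.021). The brightest probe sets of Psma2, Psma3, Psma4 and Psma6 were lower in every high fat mouse than in any control mouse, 4 of 7 genes, where 12.1 percent of all genes have this pattern. A second probe set of Psma7 had 2497, 2527 and 2362 in high fat mice, against 3328, 3062 and 3092 in control mice. It did not overlap either and narrowly missed the call (log2 difference -0.36, limma adjusted p = 0.0514).

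The constitutive beta ring held both the highest and one of the lowest differences of the core. Psmb3 (Entrez 26446), a beta subunit without catalytic activity, rose by its brightest probe set, whose signals were 3050.2, 3727 and 2998 in high fat mice, against 1781, 2352 and 1909 in control mice. All high fat values exceeded all control values, and the means were 3258 ± 407 in high fat mice and 2014 ± 299.7 in control mice (SD, n = 3 each), a 1.62-fold rise (log2 0.70, 95% interval 0.37 to 1.02, limma adjusted p = 0.0197). The second Psmb3 probe set had 1911, 2245 and 2145 in high fat mice, against 1743, 1496 and 1783 in control mice. It had the same order of groups without overlap, but was not called (log2 difference 0.33, limma adjusted p = 0.109). The difference of the brightest probe set was 0.65 with quantile normalization and 0.97 with median centring, and the second was called higher with median centring too. The call on Psmb3 was lost without high fat replicate 2 (limma adjusted p = 0.0544), control replicate 1 (0.0581), control replicate 3 (0.079) or replicate 1 of both groups (0.069), and without the intensity trend (0.051), with log2 differences of 0.60 to 0.81 with 1 mouse left out.

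The promoter of Psmb3, the bright member that was called, is given with 250 bases before and 50 after the start site, from RefSeq on GRCm38.p6 (chr11:97703184-97703483, plus strand). Capitals mark the 2 matches, 1 on each strand, to AANNGAAA, the core that interferon regulatory factors bind.
Psmb3: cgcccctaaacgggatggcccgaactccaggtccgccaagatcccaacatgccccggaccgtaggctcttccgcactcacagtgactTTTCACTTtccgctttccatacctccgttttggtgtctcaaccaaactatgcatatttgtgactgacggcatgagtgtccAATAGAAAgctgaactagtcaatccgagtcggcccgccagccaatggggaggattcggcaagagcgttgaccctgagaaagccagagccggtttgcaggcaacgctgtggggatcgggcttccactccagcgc

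Psmb2, another non-catalytic beta subunit, had signals of 1654, 1551 and 1712 in high fat mice, against 2226, 1940.5 and 2477 in control mice. The groups did not overlap, and the log2 difference was -0.43 (95% interval -0.71 to -0.15, limma adjusted p = 0.0541). It was not called here, but was called lower with quantile normalization (limma adjusted p = 0.0426) and with a filter at the 60th percentile (0.0465). With median centring the log2 difference was -0.15 (limma adjusted p = 0.45), and without the intensity trend the limma adjusted p was 0.111. Psmb1 and Psmb4, which complete the ring around the catalytic subunits, had differences of -0.037 and -0.086 by their brightest probe sets, neither called.

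**Figure D3:**
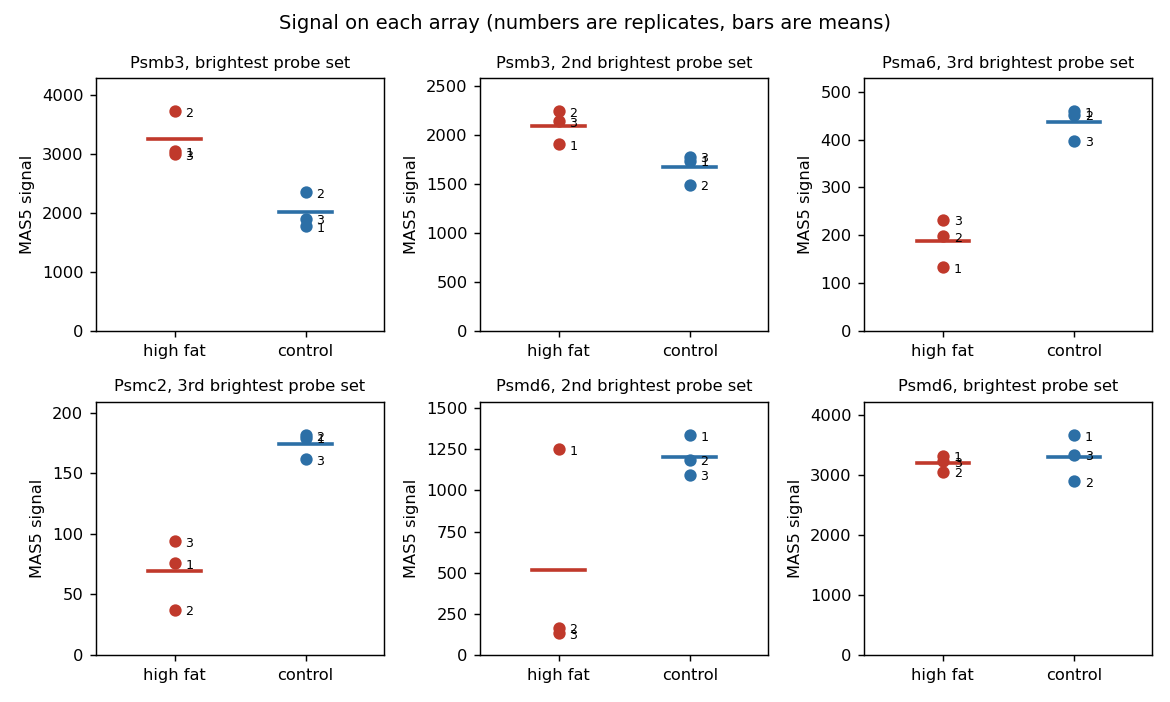
MAS5 signal from 0 on each array, high fat (red) left of control (blue), for 6 probe sets, with the mean as a bar and the replicate number beside each point. Both Psmb3 probe sets and those of Psma6 and Psmc2 separate the groups, while for Psmd6 1 probe set is low in high fat replicates 2 and 3 alone and the other overlaps.

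None of the 3 immunoproteasome subunits was called. Psmb8, the chymotrypsin-like subunit that replaces Psmb5, had signals of 1462, 1966 and 2095 in high fat mice, against 2595, 2321 and 2392 in control mice. Every high fat value was below every control value, and high fat replicate 1 was the lowest (log2 difference -0.42, 95% interval -0.76 to -0.081, limma adjusted p = 0.0975). Psmb9, which replaces Psmb6, had 1063, 1367 and 1476 in high fat mice, against 1519, 1192 and 1348 in control mice. Psmb10, which replaces Psmb7, had 1587, 1963 and 2202 in high fat mice, against 1993, 2051 and 2322 in control mice. Both overlapped between diets, with log2 differences of -0.062 (95% interval -0.42 to 0.29) for Psmb9 and -0.16 (95% interval -0.48 to 0.17) for Psmb10, and for all 3 subunits high fat replicate 1 was the lowest of the 6 arrays. Without high fat replicate 1 the differences of Psmb8, Psmb9 and Psmb10 were -0.26, 0.077 and -0.026.

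The constitutive counterparts were not called either. Psmb5 had 2972, 2622 and 2564 in high fat mice, against 2902, 2092 and 2526 in control mice, with a log2 difference of 0.13 (95% interval -0.19 to 0.45). Psmb6 had 3409, 3121 and 2859 in high fat mice, against 2933, 2753 and 3335 in control mice, with a log2 difference of 0.058 (95% interval -0.22 to 0.33). Psmb7 had 7115, 5183 and 5603 in high fat mice, against 7497, 6503 and 7534 in control mice, with a log2 difference of -0.28 (95% interval -0.60 to 0.049). The groups overlapped for each of these subunits.

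A log2 ratio of the inducible to the constitutive subunit on the same array is free of array scaling and shows whether the 2 changed unequally. Relative to the control mean, the ratio of Psmb8 to Psmb5 was -0.99, -0.39 and -0.26 in high fat mice, against -0.13, 0.18 and -0.048 in control mice. The groups did not overlap, and the difference was -0.55 (two-sided exact permutation p = 0.1, again the lowest possible, and 0.3 adjusted over 3 pairs). It was -0.32 without high fat replicate 1. The ratio of Psmb9 to Psmb6 differed by -0.12 (exact permutation p = 0.8) and that of Psmb10 to Psmb7 by 0.12 (exact permutation p = 0.6, adjusted 0.8 for both), and in both pairs the groups overlapped. With replicate 1 of both groups left out these differences were -0.39, 0.19 and 0.31 for the Psmb8, Psmb9 and Psmb10 pairs.

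**Figure D4:**
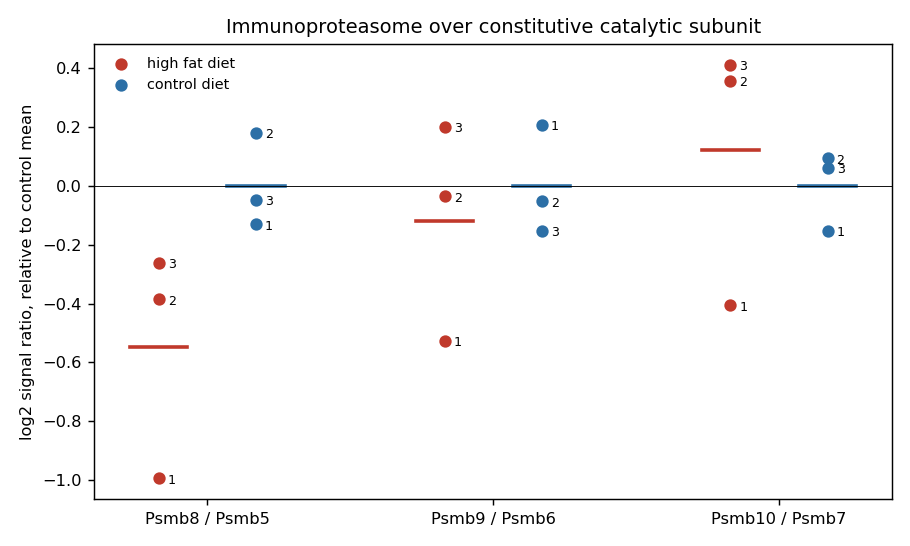
Log2 ratio of each immunoproteasome subunit to the constitutive subunit it replaces, per array and relative to the control mean, high fat (red) left of control (blue); bars are means over 3 mice and small numbers are replicates. The groups separate for Psmb8 over Psmb5 only, with high fat replicate 1 lowest in all 3 pairs.

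Leukocytes express the immunoproteasome without induction, and some of their markers were called lower in the same samples. Over all tested probe sets 8.27 percent were called lower. Of 10 tested probe sets of B cell markers 4 were called lower and 0 higher, and sums over 9 genes were 3425, 1984 and 4209 in high fat mice, against 5696, 7853 and 5453 in control mice. Of 14 tested probe sets of T and NK cell markers 5 were called lower and 0 higher, with sums over 10 genes of 2526, 3042 and 3532 in high fat and 5343, 4906 and 4552 in control mice. Of 7 neutrophil marker probe sets 3 were called lower and 0 higher, with sums of 4288 to 7707 in high fat and 7572 to 18514 in control mice. Macrophage marker sums were lowest in high fat replicate 1, at 13841, 18041 and 27817 in high fat and 27180, 24254 and 25022 in control mice. Of 10 macrophage probe sets 2 were called lower, those of Cd68 and Siglecf, and 0 higher. The sums include Chil3, with 4856, 7652 and 17288 in high fat and 14307, 11896 and 12294 in control mice. Adgre1 was higher in every high fat mouse (log2 difference 0.37) and the brighter Marco probe set had 0.26, neither called. Lung endothelial markers had 3 of 8 probe sets called lower and 0 higher, those of Pecam1, Emcn and 1 of Cdh5, with sums over 7 genes of 30972, 31405 and 39322 in high fat and 37102, 45668 and 44676 in control mice. Some listed markers, such as Cd4, Lck, Cxcr2, Retnlg and Ear2, had no tested, singly named probe set. The part of these cells in the Psmb8 values was not tested.

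The promoters of the pair whose ratio differed most are given in the same format, from RefSeq on GRCm38.p6, for Psmb8 (chr17:34197945-34198244, plus strand) and Psmb5 (chr14:54617946-54618245, minus strand). Capitals mark a match to the gamma-activated site TTCNNNGAA, which reads the same on both strands, in Psmb8, and to the antioxidant response element core TGACNNNGC, the site of the NRF1 and NRF2 factors, in Psmb5.
Psmb8: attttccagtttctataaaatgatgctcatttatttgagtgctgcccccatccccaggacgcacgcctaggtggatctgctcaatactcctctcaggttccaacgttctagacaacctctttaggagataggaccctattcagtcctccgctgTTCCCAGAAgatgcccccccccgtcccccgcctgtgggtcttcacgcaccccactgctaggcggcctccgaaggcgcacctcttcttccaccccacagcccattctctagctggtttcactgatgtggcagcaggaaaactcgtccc
Psmb5: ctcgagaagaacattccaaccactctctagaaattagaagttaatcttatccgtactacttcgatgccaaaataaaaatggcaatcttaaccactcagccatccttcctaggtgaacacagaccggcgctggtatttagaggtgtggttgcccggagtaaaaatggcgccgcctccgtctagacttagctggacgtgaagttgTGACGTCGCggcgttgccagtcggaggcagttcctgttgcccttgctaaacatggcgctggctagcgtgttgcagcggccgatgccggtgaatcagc
RefSeq promoters were matched for 35 of the 42 genes, and letters were searched on both strands. The antioxidant element was found for 6 of these 35 (17.1 percent, beside 14 percent of all 27025 genes with a promoter), among them Psmb5, Psmb6 and Psmc6. The interferon regulatory factor core was found for 11 (31.4 percent, beside 26.7 percent), with Psmb3, Psmb6 and Psme1 among them, and the gamma-activated site for 2, Psmb8 and Psmd2 (5.71 percent, beside 9.55 percent). The GC box GGGCGG was found for 21 (60 percent, beside 38.2 percent) and CCAAT for 14 (40 percent, beside 41.1 percent). A match describes the letters of this window and is not a measured site.

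In the 19S base, none of the 6 ATPases was called by its brightest probe set. The lowest difference was that of Psmc6, which had 2657, 2335 and 2373 in high fat mice, against 3244, 2855 and 2939 in control mice, without overlap (log2 difference -0.30, 95% interval -0.55 to -0.043, limma adjusted p = 0.112). It was -0.021 with median centring. The highest was Psmc4, with 3241, 3052 and 2759 in high fat mice, against 1720.2, 2726 and 2278 in control mice and no overlap (log2 difference 0.45, 95% interval 0.069 to 0.83, limma adjusted p = 0.11), called with median centring (0.73, limma adjusted p = 0.0238). It was 0.27 without control replicate 1 and 0.22 without replicate 1 of both groups. Its second probe set had 1590.2, 1467 and 1681 in high fat mice, against 1948, 1522 and 1767 in control mice, with the opposite sign and overlapping groups (log2 difference -0.14). Psmc5 varied among the high fat mice, with 2104, 2064 and 3518 in high fat mice, against 3167, 2648 and 2458 in control mice (log2 difference -0.14).

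The 11 other 19S subunits had differences on both sides of 0, 6 positive and 5 negative by their brightest probe sets, and none was called. The scaffold subunit Psmd3 was highest, with 1412, 1176 and 1226 in high fat mice, against 999, 1111 and 1005 in control mice and no overlap (log2 difference 0.29, 95% interval 0.0092 to 0.57, limma adjusted p = 0.149). Psmd14, the metalloprotease that cuts ubiquitin chains from the substrate, was lowest, with 3069, 2294 and 3220.3 in high fat mice, against 4751, 3861 and 3449 in control mice, again without overlap (log2 difference -0.49, 95% interval -0.87 to -0.11, limma adjusted p = 0.0856). The large scaffold Psmd2 had 3482, 3439.7 and 3816 in high fat mice, against 3252, 2962 and 3135 in control mice, higher in every high fat mouse (log2 difference 0.20, limma adjusted p = 0.233). Psmd2, Psmd3 and a probe set each of Psmd11 and Psmd13 were among the 7 of 71 members called higher once arrays were centred on their medians. With that scaling 4362 of all 27022 tested probe sets were called higher, and 20.2 percent were called in either direction. Psmd4, a ubiquitin receptor, had log2 differences of 0.049, -0.12 and -0.18 by its 3 probe sets, none called.

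The assembly chaperones of the 19S base that carry Psmd names were not called. Psmd5 had 1088, 1170.4 and 1294 in high fat mice, against 1474, 1325 and 1386 in control mice, without overlap (log2 difference -0.24, limma adjusted p = 0.207, and 0.036 on the log2 scale with median centring). Psmd9 and Psmd10 had log2 differences of 0.11 (95% interval -0.21 to 0.43) and 0.066 (95% interval -0.22 to 0.35), with overlapping groups. Of the activators, Psme1, an interferon-inducible 11S subunit, had 5242, 5514 and 4700.2 in high fat mice, against 4588, 4507 and 4919 in control mice (log2 difference 0.14, 95% interval -0.11 to 0.39). The nuclear activator Psme3 had differences of -0.095 and 0.22 by its 2 tested probe sets. Psme4 had 0.11 by its brightest probe set and -0.16, -0.34, -0.43 and -0.82 by the 4 dimmer ones, and none of these was called.

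Probe sets of 1 gene often disagreed, and the larger negative differences came from ones dim by their mean over all 6 arrays. A fall in high fat mice itself lowers that mean. The probe set with the largest fall, of Psmd6, had control signals of 1336, 1186 and 1095, above the limit of 1024. It counts as dim through its values of 165 and 133 in high fat replicates 2 and 3. Of 19 genes with more than 1 tested probe set, 9 had differences of opposite sign, and these were Psma3, Psmb1, Psmc2, Psmc4, Psmd4, Psmd9, Psmd13, Psme3 and Psme4. Psma3 had log2 differences of -0.14 and 0.044 from its brighter to its dimmer probe set, and Psmb1 -0.037, 0.23 and -0.08. Psmd9 had 0.11 and -0.60, and Psmd13 0.057, 0.22 and -0.64, in the same order, and none of these was called. Of 22 tested members with a mean log2 signal under 10 (a signal of 1024), 15 had negative differences, beside 12026 of all 20118 probe sets that dim. Of these 22 members 2 were called, beside 11.9 percent of all that dim. Of 49 brighter members 32 had negative differences, beside 2942 of all 6904 probe sets that bright. Of these 49 members 1 was called, beside 15.8 percent of all that bright. The median difference was -0.22 in dim members and -0.087 in bright ones, against -0.12 and 0.057 over all probe sets of these classes. The part of the 3′ to 5′ ratio, which differed between diets, in the values of dim probe sets was not tested.

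The probe sets of Psma6, an alpha ring subunit, disagreed in the size of the difference and not in its sign. Its dimmest tested probe set fell, with 133, 198 and 232 in high fat mice, against 459, 452 and 398 in control mice, without overlap (log2 difference -1.25, 95% interval -1.78 to -0.72, limma adjusted p = 0.0143). The call was lost without control replicate 2 (limma adjusted p = 0.0604), control replicate 3 (0.0521) or replicate 1 of both groups (0.0553). The brightest Psma6 probe set had 5243, 5404 and 4848 in high fat mice, against 5803, 5804 and 5991 in control mice, a log2 difference of only -0.18, and the next brightest had -0.071.

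Those of the ATPase Psmc2 disagreed in size and also in sign. Its dimmest tested probe set fell, with 75.5, 37.3 and 94 in high fat mice, against 179, 182 and 162 in control mice (log2 difference -1.44, 95% interval -2.29 to -0.59, limma adjusted p = 0.0394). This call held in 1 of 6 fits with 1 mouse left out, the fit without high fat replicate 3, and the limma adjusted p reached 0.118 without control replicate 2 and 0.121 without replicate 1 of both groups. It was also lost with quantile normalization (limma adjusted p = 0.059), no filter (0.0701) and the replicate block (0.0567). The brightest Psmc2 probe set overlapped between diets (log2 difference 0.016). The next brightest had 3796, 3666 and 3763 in high fat mice, against 4868, 3854 and 4816 in control mice, without overlap, and was not called (log2 difference -0.26, limma adjusted p = 0.182).

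Psmd6, a 19S lid subunit singled out after its values were seen, divided the high fat mice. Its dimmer tested probe set had 1249, 165 and 133 in high fat mice, against 1336, 1186 and 1095 in control mice, so that high fat replicate 1 lay with the control mice (log2 difference -2.0, 95% interval -3.59 to -0.40, limma adjusted p = 0.0955). In 6 fits with 1 mouse left out the log2 difference ran from -3.02, without that mouse, to -1.40. Only the fit without that mouse called it. That mouse stands out by these same values, so the call is not separate evidence. The brighter one had 3319.8, 3051 and 3230.2 in high fat mice, against 3664, 2897 and 3341 in control mice, with a log2 difference of -0.039. High fat replicate 1 was also the array with the highest cardiac marker sum, whose part in the values was not tested.

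**Figure D5:**
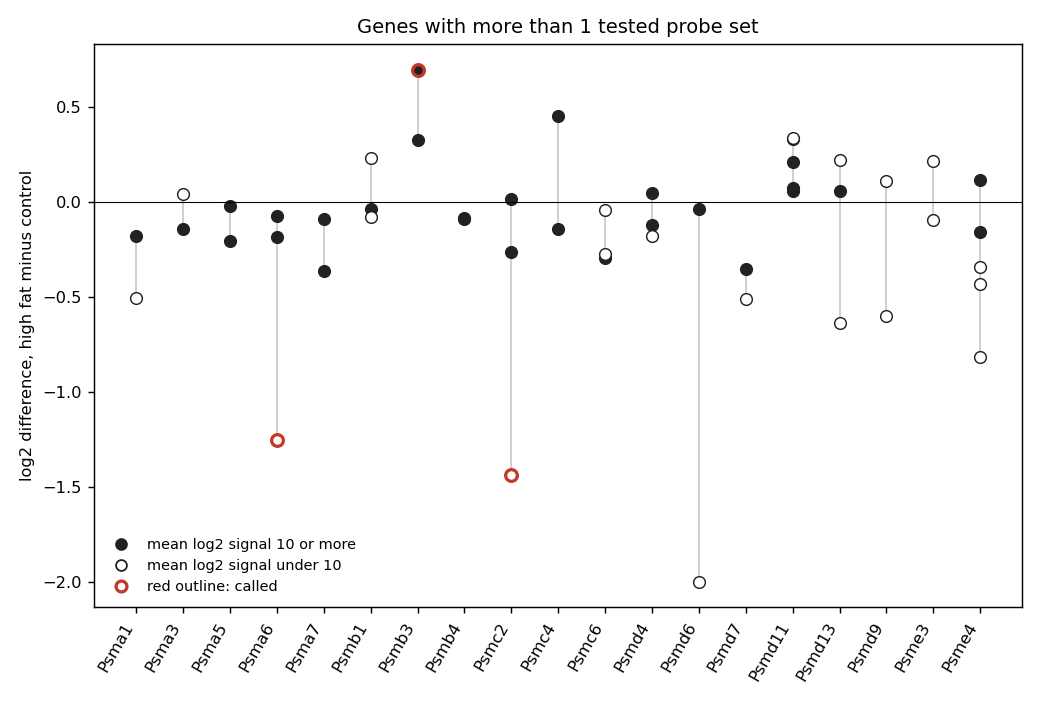
Log2 difference, high fat minus control, of each tested probe set of the 19 proteasome genes with more than 1, filled where the mean log2 signal is 10 or more and open where it is under 10, with a red outline where called. The values furthest below 0, for Psmd6, Psmc2 and Psma6, are open circles, while bright probe sets of the same genes lie near 0. The mean is over all 6 arrays, and the open Psmd6 probe set has control signals of 1336, 1186 and 1095, above the limit of 1024.

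Genes that assemble, supply or use the proteasome were counted by probe set in lists of their own, where 12.9 percent of all probe sets were called. Of 27 tested probe sets of 12 assembly and accessory genes, 2 were called higher and 1 lower, with a median log2 difference of 0.14. Both of those called higher belong to Sem1, the smallest subunit of the 19S lid, which is not numbered among the Psm genes. Its brighter probe set had 5230.3, 5481 and 4730.2 in high fat mice, against 2655, 3032 and 2881 in control mice, a 1.8-fold rise without overlap (limma adjusted p = 0.00532). The other had 2530.1, 2538 and 2850.4 in high fat mice, against 1429, 1622 and 1422 in control mice, 1.77-fold (limma adjusted p = 0.00595). The probe set called lower was 1 of Usp14, a deubiquitinase bound to the 19S particle, with 228, 233 and 250.1 in high fat mice, against 445, 393 and 460.4 in control mice (limma adjusted p = 0.0152). It was the dimmest tested Usp14 probe set. The brighter ones were not called, with log2 differences of -0.43, -0.18 and 0.28 in order of brightness. Pomp, the chaperone that matures the 20S core, overlapped between diets (log2 difference 0.23, limma adjusted p = 0.304).

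Of 15 probe sets of 8 shuttle and NRF1 pathway genes, 2 were called higher and 1 lower (median 0.24). The ubiquilins Ubqln2 (2085, 2539.5 and 2474 in high fat mice, against 1719.5, 1432 and 1483 in control mice) and Ubqln4 (929, 1122 and 1245 in high fat mice, against 652, 665 and 616 in control mice), which carry ubiquitylated proteins to the proteasome, rose by 1 of 2 tested probe sets each (limma adjusted p = 0.0204 and 0.0147). The other probe sets were not called, with log2 differences of -0.63 for Ubqln2 and 0.24 for Ubqln4. The shuttle Rad23b fell by 1 probe set, its brightest, with 1193, 1166 and 1141 in high fat mice, against 1841, 1506 and 1587 in control mice (limma adjusted p = 0.0317). Its dimmer tested probe sets were not called, with log2 differences of -0.38, 0.28 and -0.74 in order of brightness. Nfe2l1, which encodes NRF1, the factor that drives proteasome genes when the proteasome is impaired, had 1953, 2819 and 2414 in high fat mice, against 2071, 1413 and 1969 in control mice, with overlapping groups, and was not called (log2 difference 0.40, limma adjusted p = 0.175). Of the 6 ubiquitin and E1 genes only Uba6, an E1 enzyme, had a tested singly named probe set, and 1 of its 4 rose (log2 difference 0.75, limma adjusted p = 0.0426). The dimmer ones were not called, with log2 differences of 0.43, 0.62 and 0.25.

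The MHC class I loading genes, which use the peptides of the immunoproteasome, had 3 of 27 tested probe sets called higher and 0 lower (median 0.12). They were 2 probe sets of the chaperone calreticulin, Calr, and 1 of tapasin, Tapbp. The brighter one of Calr had 9174, 9536 and 9379.6 in high fat mice, against 6453, 6313 and 5147 in control mice (limma adjusted p = 0.0147). That of Tapbp had 6941, 8858 and 8246 in high fat mice, against 5196, 5346 and 5429 in control mice (limma adjusted p = 0.0207). A dimmer Tapbp probe set had the opposite sign and overlapping groups (log2 difference -0.13, limma adjusted p = 0.516). Tap1 and Tap2, the peptide transporter genes that neighbour Psmb8 and Psmb9, had log2 differences of 0.35 and 0.43 (limma adjusted p = 0.323 and 0.0902). By their brightest probe sets B2m had -0.25, Nlrc5 -0.23, Erap1 -0.047 and Pdia3 -0.045, while H2-K1 had 0.23, H2-D1 0.12 and Canx 0.34, none called. Dimmer tested probe sets of H2-K1, H2-D1 and Canx had both signs, from -0.77 to 0.33, and none was called. Irf1, the interferon-induced activator of immunoproteasome genes, had 2665, 3773 and 4814 in high fat mice, against 2944, 2744 and 2819 in control mice, with high fat replicate 1 below the control mice and the other high fat mice above them (log2 difference 0.36, limma adjusted p = 0.237).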

How the data were processed

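Lung RNA of 6 mice was measured with 1 Affymetrix array per mouse. MAS5 made the deposited intensity values, per the submitters' processing notes, and the authors scaled them to a trimmed mean of 500 on every array, as their values show. Settings and detection calls were not analysed here. All 88 members matched a RefSeq gene of GRCm38.p6 by Entrez identifier. Values under 1 were set to 1 and log2 was taken. Probe sets at or above the 40th percentile of mean log2 signal (6.14) were tested with limma 3.58.1 in R 4.3.3, with an intensity trend, two-sided, with Benjamini-Hochberg adjustment over all tested probe sets. Affymetrix controls (64) were left out. Precision is limited by 3 arrays per group. The labels give each array its own sample number but do not state separate mice, and p-values measure the spread between these samples.

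The members, lists and tests were chosen with earlier results of these data known. Named with values are called members, catalytic subunits and Psme1, the highest and lowest gene of each subcomplex, genes with probe sets of opposite sign, and called genes of the pathway lists. Psma7, Psmb2, Psmc5, Psmd2, Psmd6, Pomp, Nfe2l1, Tap1, Tap2, Irf1 and the other uncalled MHC class I loading genes were added after their values were seen. The test was checked on simulated data. Alternatives were other scalings, offsets, filters, variance models, representatives, the replicate block and leaving out mice.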

Additional observations from a re-analysis of the deposited data

How the results depend on the processing

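The count of proteasome probe sets called higher was 1 and that called lower 2, with a median log2 difference of -0.095. Median centring gave 7 higher and a median of 0.18 (20.2 percent of all probe sets called, 4362 of 27022 higher), quantile normalization 4 lower (11.5 percent), and no filter 1 lower (5.84 percent). Fits without the intensity trend gave 0 higher (11 of 71 members at an unadjusted p under 0.05, 9.27 percent of all called), the replicate block 1 lower (11.3 percent), and 1 representative per gene 0 lower (9 of 40 genes at an unadjusted p under 0.05, 6.75 percent of all called). With 1 mouse left out the counts ran from 0 to 1 higher and 0 to 2 lower and the median from -0.13 to -0.072. Both counts were 0 without control replicate 3, where 12 members had an unadjusted p under 0.05 and 2.67 percent of all probe sets were called. A fit added after the data were seen left out replicate 1 of both groups, and 0 were higher and 1 lower, a Psmd6 probe set, and 9 had an unadjusted p under 0.05 (4.71 percent of all called). The difference in the ratio of Psmb8 to Psmb5 ran from -0.69 to -0.32 with 1 mouse left out, that of Psmb9 to Psmb6 from -0.28 to 0.082 and that of Psmb10 to Psmb7 from -0.025 to 0.38, and without replicate 1 of both groups the Psmb9 ratio differed by 0.19. Of the 3 called members, 2 stayed called with quantile normalization, no filter, no trend and the block, and 3 with median centring. None of the called values changed sign. The cause of these shifts was not tested. Deviations of same-numbered mice correlated at 0.167, 0.108 and -0.041. High fat replicates 1 and 2 correlated best with the control of the same number, and high fat replicate 3 with control replicate 2. With 3 mice per group these values cannot decide whether the replicate numbers pair the mice. The signal over background is unknown, which limits dim probe sets.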

Other observations

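Of the 88 proteasome probe sets, 17 were under the brightness filter and were not tested. One of Psmd11 had 58.1, 63.9 and 58.4 in high fat mice, against 20.1, 7.2 and 7.54 in control mice, higher in every high fat mouse, while the 5 tested probe sets of Psmd11 had log2 differences of 0.059 to 0.34. One of Psme4 had 2.61, 71 and 46.9 in high fat mice, against 102, 109.8 and 88.5 in control mice, lower in every high fat mouse. Groups also did not overlap for the Psma8 probe set, higher in high fat mice, and for an untested one each of Psma1, Psma6 and Psmd13, lower. The rest of the 17 overlapped. The share without overlap over all probe sets under the filter was not counted. A fit with no filter tested all 88 and called 2, the Psmb3 and Psma6 probe sets, where 5.84 percent of all probe sets were called.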
